A study of Mus musculus with 18 samples.

Results

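Apolipoproteins are the protein coat of the particles that carry lipid in blood, and the liver makes most of them. The account that follows covers 10 genes: Apob and Mttp, which build the triglyceride-rich particle; Apoa1, Apoa2 and Apom of high-density lipoprotein; Apoa4, Apoa5, Apoc2 and Apoc3, which move between particles and act on triglyceride clearance; and Apoe, a ligand for uptake receptors. The genes were chosen by name, with earlier results of these data known. Counts of them set beside the share over all genes are therefore a description. Their 17 annotated probe sets were collected, and the one that was brightest on average over the 18 arrays stands for each gene. All 10 genes were among the 12578 bright enough to be tested, out of 18193 genes named on the array.

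In the hepatocyte, apolipoprotein B is lipidated in the endoplasmic reticulum by the microsomal triglyceride transfer protein, and the particle leaves as very-low-density lipoprotein. Apolipoprotein A-I takes up cholesterol outside the cell to form high-density lipoprotein. Lipoprotein lipase then removes triglyceride from the circulating particles with apolipoprotein C-II as its cofactor, apolipoprotein A-V as a stimulator and apolipoprotein C-III as an inhibitor, and apolipoprotein E directs the remnants to hepatic receptors.

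The livers came from male mice aged 12 weeks. Knockout mice were Alb-Cre+/-/POR-lox+/+ and lack the P450 reductase in cells where the albumin promoter drives Cre, which are mainly hepatocytes. Controls were Alb-Cre-/-/POR-lox+/+: they carry the same floxed alleles without the transgene, so that the deletion and the presence of Cre cannot be told apart. From the age of 4 weeks the mice ate, for 8 weeks, a diet with 3.27% ARASCO oil (a fungal oil) and 2.73% menhaden oil, with 6% canola oil or with 6% lard. All 3 diets also held 0.025% cholesterol and 0.008% sodium cholate, and all mice were fasted for 4 h. The 6 groups are therefore knockout and control livers on the fish/fungal diet, on canola oil and on lard, each with 3 pools of RNA from 3 mice and 1 array per pool. Por, the deleted gene, has no named probe set and is not analysed here, which leaves the genotypes as labelled without a check on it.

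Values are on the log2 scale, where a difference of 1 is a doubling. Array medians lay between 5.229 and 5.286, and arrays of 1 group correlated at 0.988 to 0.996 over the genes tested. Of 5 tested hepatocyte markers 0 passed by limma in the averaged knockout and fish/fungal comparisons, and 0 had an unadjusted p under 0.05. Albumin lay between 14.62 and 14.73 in every array. It is near the top of the scale, as is the marker Ttr, with group means of 14.41 to 14.50. Array maxima were 14.82 to 14.89. Whether signals this bright still follow the amount of RNA was not tested. In whole liver, fewer cells of a type and less RNA per cell cannot be told apart. A gene is said to have changed where its p-value, adjusted over all 12578 genes, was under 0.05. Differences are log2 changes ± SE from 1 fit over the 18 arrays.

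Diet moved a small set of these genes and genotype moved 1. On the fish/fungal diet, averaged over both genotypes, Apoa4 fell 5.91-fold, Apoc2 1.47-fold and Apoa5 1.21-fold relative to lard, and the other 7 genes did not pass. That is 3 of 10, all of them lower, where 2.32% of all genes tested passed in either direction and 1.78% were lower. Relative to canola oil the fish/fungal diet lowered Apoa4, Apoc2 and Apoa5 as well, 3 of 10 where 0.986% of all genes passed and 0.692% were lower. These comparisons share the fish/fungal arrays. In the knockout, averaged over the diets, Apom fell 1.25-fold and the other 9 genes did not pass, so 1 of 10 passed where 4.57% of all genes did and 0.755% were lower.

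**Figure D1:**
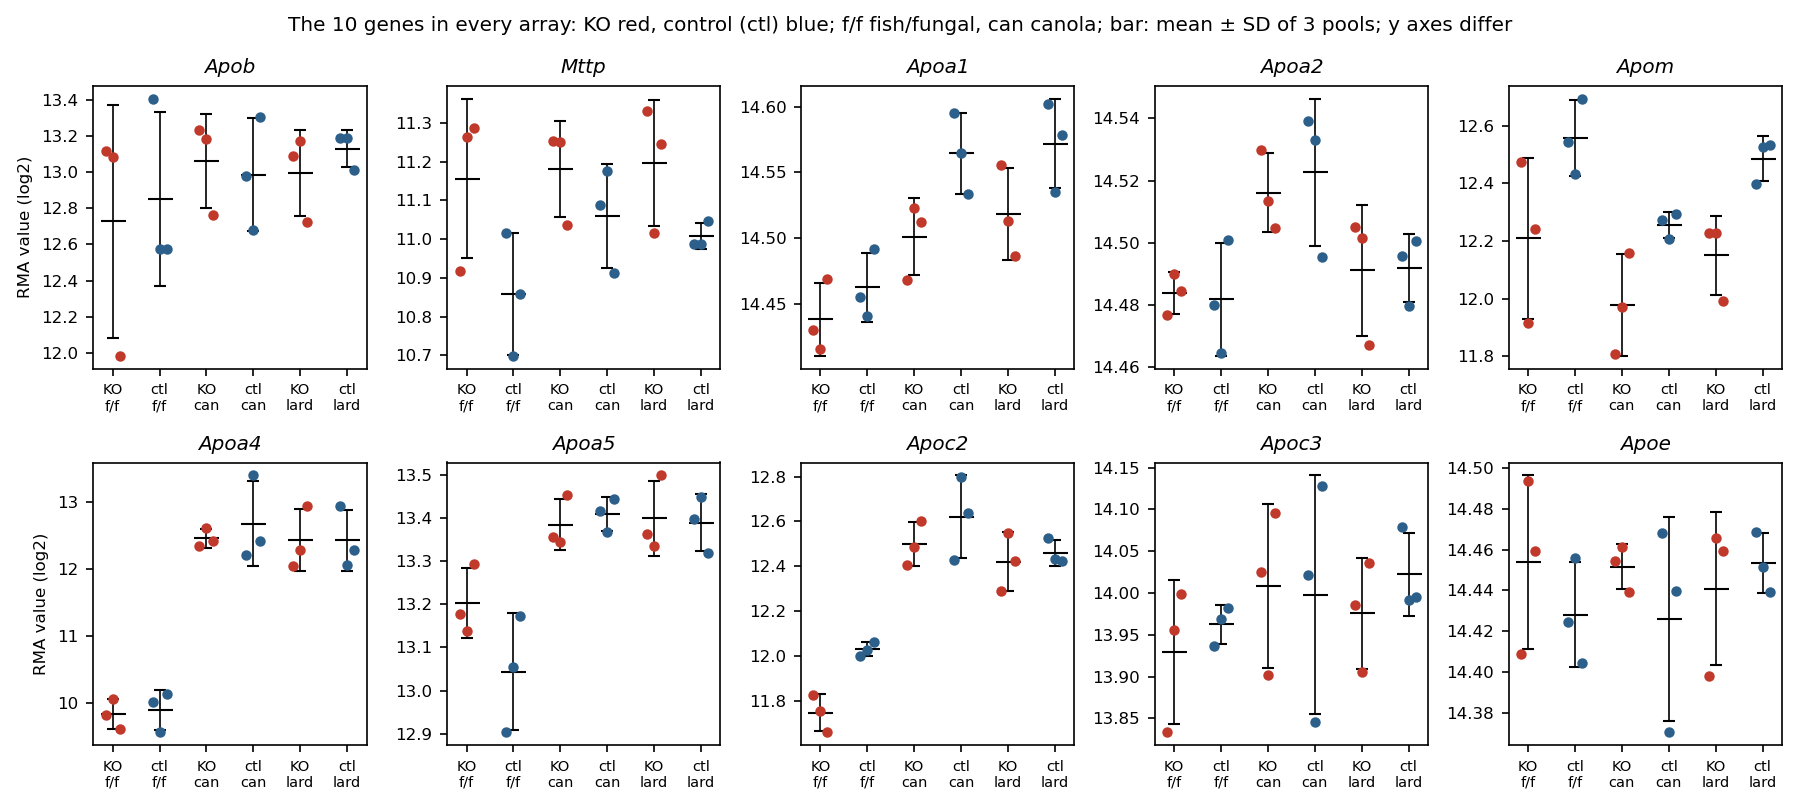
Expression of the 10 genes in every array, as RMA values on the log2 scale (y axis, a separate range for each gene), in the 6 groups (x axis). Red points are knockout and blue points control pools, and bars give the mean ± SD of 3 pools. Apoa4 on the fish/fungal diet lies between 9.56 and 10.12, below all arrays of the other diets, and for Apoc3 and Apoe the 3 diets overlap.

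The promoters of the 4 genes that passed a comparison are shown because Apoa4, Apoc2 and Apoa5 moved together with diet while Apom moved with genotype. They run from 250 bases before to 50 bases after the start site, are taken from RefSeq on build GRCm38.p6, and are written in the direction of transcription. The table used held 9 of the 10 genes; Apoc3 is named only. Capitals mark matches, on either strand, to 4 motifs: the nuclear receptor half-site AGGTCA, the direct repeat AGGTCANAGGTCA (DR1, each arm of which is also a half-site), the HNF1 half-site GTTAAT and the TATA box TATAAA.
Apoa4, chr9:46240594-46240893, plus strand: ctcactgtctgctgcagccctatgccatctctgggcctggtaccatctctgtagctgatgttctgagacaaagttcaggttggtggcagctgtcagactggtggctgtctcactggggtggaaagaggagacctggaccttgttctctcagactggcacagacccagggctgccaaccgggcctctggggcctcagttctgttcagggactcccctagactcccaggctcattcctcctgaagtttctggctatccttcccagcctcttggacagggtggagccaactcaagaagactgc
Apoa5, chr9:46268358-46268657, plus strand: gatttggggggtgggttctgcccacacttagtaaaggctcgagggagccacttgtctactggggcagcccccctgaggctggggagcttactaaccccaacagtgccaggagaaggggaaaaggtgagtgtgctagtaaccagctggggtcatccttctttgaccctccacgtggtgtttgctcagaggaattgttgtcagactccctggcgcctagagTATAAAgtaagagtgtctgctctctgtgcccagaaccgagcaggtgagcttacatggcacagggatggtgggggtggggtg
Apoc2, chr7:19677892-19678191, minus strand: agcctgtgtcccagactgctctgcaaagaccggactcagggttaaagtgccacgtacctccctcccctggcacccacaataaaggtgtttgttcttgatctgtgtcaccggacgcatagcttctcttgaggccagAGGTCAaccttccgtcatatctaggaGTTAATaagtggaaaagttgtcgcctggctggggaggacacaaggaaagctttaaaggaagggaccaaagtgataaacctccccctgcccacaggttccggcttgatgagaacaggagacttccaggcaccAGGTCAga
Apom, chr17:35131752-35132051, minus strand: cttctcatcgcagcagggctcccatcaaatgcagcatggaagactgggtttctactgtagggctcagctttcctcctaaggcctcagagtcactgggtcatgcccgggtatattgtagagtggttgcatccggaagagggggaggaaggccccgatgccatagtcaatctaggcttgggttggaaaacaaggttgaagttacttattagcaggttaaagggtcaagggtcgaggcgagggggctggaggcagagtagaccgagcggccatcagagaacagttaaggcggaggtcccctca
The Apoa4 and Apom windows held no exact match to the motifs. The Apoa5 window of the first of 2 annotated start sites held a TATA box at position -31, and the Apoc2 window held half-sites AGGTCA at -115 and 43 and GTTAAT at -89. Among 32851 mouse promoters of 300 bases, 16.3% held AGGTCA, 0.0396% the direct repeat, 7.1% GTTAAT and 13.6% the TATA box. The 3 genes that fell on the fish/fungal diet thus shared no exact match to these 4 motifs within the windows shown. Sites that differ from these letters or lie outside the windows were not looked for.

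Apoa4 encodes apolipoprotein A-IV, an exchangeable apolipoprotein made by gut and liver. On the fish/fungal diet its values were 9.82, 10.06 and 9.61 in knockout pools and 10.01, 9.56 and 10.12 in control pools. On canola oil they were 12.35, 12.62 and 12.41 in knockout and 12.22, 13.40 and 12.42 in control pools. On lard they were 12.05, 12.29 and 12.95 in knockout and 12.94, 12.06 and 12.28 in control pools. All 6 fish/fungal arrays lay below all 12 others, and within each diet the genotypes overlapped. The log2 change on the fish/fungal diet relative to lard was -2.56 ± 0.20 (95% interval of the fold 4.42 to 7.92, limma adjusted p = 9.48e-07), the 5th largest fall of all genes tested, leaving 16.9% of the level on lard. Against canola oil it was -2.71 ± 0.20 (6.52-fold, adjusted p = 8.17e-07), the 3rd largest fall.

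The fall of Apoa4 was seen in each genotype. Against lard it was -2.60 ± 0.28 in knockout livers (adjusted p = 0.000295) and -2.53 ± 0.28 in control livers (adjusted p = 0.000141). Against canola oil it was -2.63 ± 0.28 in knockout and -2.78 ± 0.28 in control livers. The difference between the genotypes in the response to fish/fungal oil relative to lard was -0.06, with a 95% interval of -0.90 to 0.78. The brightest Apoa4 probe set has an ID ending (_x_at) that marks probes shared with other sequences. The gene's other probe set, whose ID has no such ending, gave 8.52, 8.82 and 8.50 in knockout and 8.58, 8.40 and 8.77 in control pools on the fish/fungal diet, and 11.23 to 12.84 in the 12 other arrays. Its change was larger than that of the brightest probe set, at -3.07 ± 0.24 against lard and -3.19 ± 0.24 against canola oil.

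Apoc2 encodes the cofactor of lipoprotein lipase. It had values of 11.83, 11.75 and 11.66 in knockout and 12.00, 12.03 and 12.06 in control pools on the fish/fungal diet. On canola oil it had 12.41, 12.49 and 12.60 in knockout and 12.43, 12.80 and 12.64 in control pools, and on lard 12.29, 12.55 and 12.42 in knockout and 12.53, 12.43 and 12.42 in control pools. The fish/fungal arrays again lay below every other array, and among them the 3 knockout pools lay below the 3 control pools. The change was -0.55 ± 0.06 against lard (adjusted p = 6.4e-05) and -0.67 ± 0.06 against canola oil (1.59-fold, adjusted p = 1.09e-05).

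Within genotypes, Apoc2 fell by 0.67 ± 0.09 against lard in knockout livers (1.6-fold, adjusted p = 0.00162) and by 0.43 ± 0.09 in control livers (1.35-fold, adjusted p = 0.0317). The genotypes' responses differed by -0.24 (95% interval -0.51 to 0.02, unadjusted p = 0.0704), which did not pass. Knockout pools had a log2 difference of -0.28 ± 0.09 from control pools on the fish/fungal diet, with adjusted p = 0.361, against -0.12 ± 0.09 on canola oil and -0.04 ± 0.09 on lard. The call in control livers against lard was lost without any 1 of the 6 arrays compared, with adjusted p from 0.0757 to 0.115. It was also lost with each array centred on its median (adjusted p = 0.0929) and without the intensity trend (0.0511). Against canola oil in control livers the call was lost with only the groups compared in the fit (0.0543).

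Apoa5 encodes apolipoprotein A-V, a low-abundance plasma protein that lowers triglyceride. Its values on the fish/fungal diet were 13.18, 13.14 and 13.29 in knockout and 12.90, 13.06 and 13.17 in control pools. They were 13.36, 13.35 and 13.45 in knockout and 13.42, 13.37 and 13.44 in control pools on canola oil, and 13.36, 13.34 and 13.50 in knockout and 13.40, 13.45 and 13.32 in control pools on lard. All 6 fish/fungal arrays were the lowest, by a margin much narrower than for Apoa4. The change was -0.27 ± 0.05 against lard (adjusted p = 0.00532) and -0.27 ± 0.05 against canola oil (adjusted p = 0.00975).

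In control livers Apoa5 fell by 0.35 ± 0.07 against lard (1.27-fold, adjusted p = 0.0272) and by 0.37 ± 0.07 against canola oil (adjusted p = 0.033). In knockout livers the changes were -0.20 ± 0.07 and -0.18 ± 0.07 and did not pass (adjusted p = 0.379 and 0.693). The difference between the genotypes in the response against lard was 0.15 (95% interval -0.06 to 0.36), which also did not pass. In control livers the call against lard was lost without lard replicate 1 or 2 or fish/fungal replicate 1 or 2 (adjusted p = 0.0794 to 0.156), and against canola oil without any canola replicate or fish/fungal replicate 1 or 2 (adjusted p = 0.0721 to 0.155). Without the intensity trend and with only the groups compared both calls were lost (adjusted p = 0.0845 and 0.117 against lard, 0.1 and 0.179 against canola oil), as was the call against lard with median centring (0.074) and that against canola oil without the filter on dim probe sets (0.0523).

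Apoc3, the inhibitor of triglyceride clearance, did not pass in any comparison. It had 13.83, 13.96 and 14.00 in knockout and 13.94, 13.97 and 13.98 in control pools on the fish/fungal diet, against 13.99, 13.91 and 14.04 in knockout and 14.08, 13.99 and 14.00 in control pools on lard. On canola oil it lay between 13.85 and 14.13 over both genotypes, and the 3 diets overlapped. Its change on the fish/fungal diet relative to lard was -0.05 ± 0.05, with a 95% interval of -0.16 to 0.05.

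**Figure D2:**
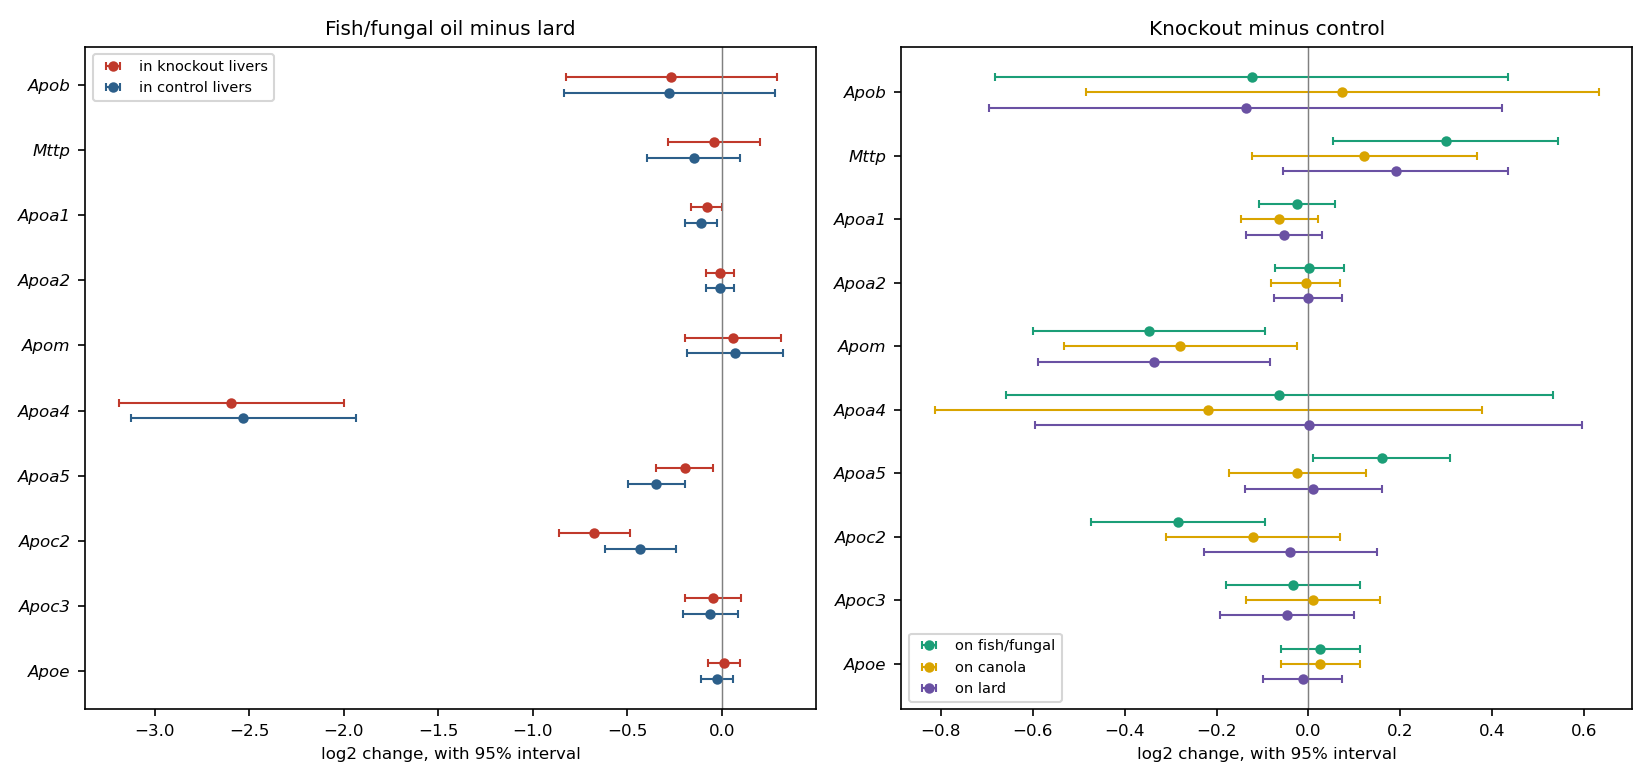
Log2 changes of the 10 genes (x axes, with 95% intervals) for the fish/fungal diet minus lard in knockout and control livers (left), and for knockout minus control on each diet (right). Apoa4 stands at -2.60 in knockout and -2.53 in control livers, and Apom lies below 0 on all 3 diets. The x axes have different ranges.

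In the RefSeq gene order Apoa1, Apoc3, Apoa4 and Apoa5 follow each other on chromosome 9 with no other protein-coding gene between them, and Apoc2, Apoc4, Apoc1 and Apoe do so on chromosome 7. The log2 change of Apoa4 on the fish/fungal diet relative to lard differed by -2.47 from that of Apoa1, by -2.51 from that of Apoc3 and by -2.29 from that of Apoa5. For Apoc2 against Apoe the difference in log2 change was -0.55. These differences are given as a description, since the genes were set side by side with their changes already known. The signals of Apoa1, Apoc3 and Apoe lie near the top of the scale, and whether their changes there are compressed was not tested.

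Apoa1, the main protein of high-density lipoprotein, did not pass by its brightest probe set. It had 14.43, 14.42 and 14.47 in knockout and 14.46, 14.44 and 14.49 in control pools on the fish/fungal diet, against 14.56, 14.51 and 14.49 in knockout and 14.60, 14.54 and 14.58 in control pools on lard. Within each genotype the fish/fungal arrays lay below the lard arrays without overlap, and over both genotypes the highest fish/fungal array lay just above the lowest lard array. The change was -0.09 ± 0.03 (adjusted p = 0.0978). Of the gene's 4 probe sets, fitted at the level of probe sets, the dimmest passed at -0.11 ± 0.03 (adjusted p = 0.0442) and the other 3 lay between -0.09 and -0.10. Against canola oil the change was -0.08 ± 0.03 (adjusted p = 0.221).

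Apoa2, the second main protein of high-density lipoprotein, lay between 14.46 and 14.54 in all 18 arrays. Its changes were -0.0017 ± 0.02 in the averaged knockout comparison and -0.01 ± 0.03 on the fish/fungal diet relative to lard. Apoe lay between 14.37 and 14.49, with -0.01 ± 0.03 on the fish/fungal diet relative to lard and 0.01 ± 0.02 in the knockout. Apoa1, Apoa2, Apoe and Apoc3 were among the brightest genes of the array: their means ranked 3, 4, 7 and 28 of 12578, and no array's value was more than 1.06 below that array's maximum. Their pooled SD within groups was 0.017 to 0.086, against a median of 0.145 over all genes tested. Whether signals this close to the top of the scale still follow the amount of RNA was not tested.

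Apom encodes apolipoprotein M, the carrier of sphingosine-1-phosphate on high-density lipoprotein. On the fish/fungal diet it had 12.47, 11.92 and 12.24 in knockout pools, against 12.54, 12.43 and 12.69 in control pools. On canola oil it had 11.81, 11.97 and 12.16 in knockout pools, against 12.27, 12.21 and 12.29 in control pools. On lard it had 12.23, 12.23 and 11.99 in knockout pools, against 12.40, 12.53 and 12.53 in control pools. The genotypes were apart on canola oil and on lard, while on the fish/fungal diet knockout replicate 1 lay above 1 control pool. By the gene's other probe set they were apart on the fish/fungal diet and on lard and overlapped on canola oil. There control replicate 2 had 11.58, below knockout replicates 2 and 3 at 11.60 and 11.90.

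Averaged over the diets the log2 change of Apom in the knockout was -0.32 ± 0.07 (95% interval of the fold 1.13 to 1.38, limma adjusted p = 0.0122, 9 pools per genotype). Within diets it was -0.35 ± 0.12 on the fish/fungal diet, -0.28 ± 0.12 on canola oil and -0.34 ± 0.12 on lard, with adjusted p = 0.467, 0.746 and 0.272. None of the 10 genes passed within a single diet by limma, where 0.294%, 0.0636% and 0.986% of all genes did in that order, and at an unadjusted p under 0.05 there were 4, 1 and 1 of the 10, where 959, 772 and 1325 of all 12578 genes were. The other Apom probe set changed by -0.32 ± 0.08 (adjusted p = 0.0358). Between diets Apom did not pass: its difference was 0.27 ± 0.09 for the fish/fungal diet minus canola oil (adjusted p = 0.188) and 0.07 ± 0.09 minus lard. Without knockout fish/fungal replicate 2 the difference from canola oil was 0.34 and passed, with adjusted p = 0.0378.

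Markers of macrophages moved with genotype beside Apom, and 1 of them moved with diet. Of 12 Kupffer cell and macrophage markers, 4 rose in the knockout averaged over diets: Cd68 by 0.52 ± 0.10, Lyz2 by 0.54 ± 0.12, C1qa by 0.40 ± 0.11 and C1qb by 0.40 ± 0.11. Over all genes 480 of 12578 rose there. At an unadjusted p under 0.05 there were 9 of the 12, and 2262 of all genes. Of 7 sinusoidal endothelial, 7 stellate, 3 cholangiocyte and 4 lymphocyte markers tested there, 0 passed by limma. In that order 2, 3, 0 and 1 had an unadjusted p under 0.05. Their log2 changes ran from -0.11 to 0.35, -0.05 to 0.49, -0.06 to 0.10 and -0.04 to 0.39. The medians were 0.04, 0.13, 0.06 and 0.02, against 0.33 for the macrophage list. C1qa and C1qb no longer passed without any of 13 and 11 single arrays (adjusted p up to 0.088 and 0.0897) or with quantile normalization repeated (0.0581 and 0.0594). C1qb also did not pass with median centring (0.0501) or by the mean of its probe sets (0.0832). The summed level of the list, on the linear scale over all 12, was 10910 to 18251 in knockout and 12214 to 13253 in control pools on the fish/fungal diet, 9659 to 13049 in knockout and 7792 to 11257 in control pools on canola oil, and 14334 to 15405 in knockout and 8845 to 12305 in control pools on lard. The genotypes were apart on lard alone. The summed level of the 5 hepatocyte markers was 81485 to 83069 in knockout and 83724 to 84658 in control pools on the fish/fungal diet. On canola oil it was 81593 to 83914 in knockout and 81683 to 84046 in control pools. On lard it was 81852 to 83428 in knockout and 84616 to 87452 in control pools. For this list the genotypes overlapped on canola oil alone, and knockout pools were lower on the other diets. The limit given above for albumin near the top of the scale applies to this sum too. Where Apoa4, Apoc2 and Apoa5 fell, on the fish/fungal diet relative to canola oil, 1 of the 12 macrophage markers rose: Lyz2 by 0.65 ± 0.14 (adjusted p = 0.0367). In that comparison 37 of all 12578 genes rose. There 10 of the 12 had an unadjusted p under 0.05 and the list's median log2 change was 0.33, against 1 of 12 and 0.09 relative to lard. Over all genes 1218 had such a p relative to canola oil and 1648 relative to lard. The Lyz2 call was lost without any of 9 single arrays (adjusted p up to 0.105) and with only the groups compared in the fit (0.0854). The part of any of these marker lists in the results for Apom, Apoa4, Apoc2 and Apoa5 was not tested.

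Mttp, the transfer protein that lipidates apolipoprotein B, had 10.92, 11.26 and 11.29 in knockout pools, against 11.02, 10.70 and 10.86 in control pools, on the fish/fungal diet. It had 11.25, 11.25 and 11.04 in knockout and 11.09, 11.18 and 10.91 in control pools on canola oil, and 11.33, 11.01 and 11.24 in knockout and 10.99, 10.99 and 11.05 in control pools on lard. The genotypes overlapped on every diet. The averaged log2 difference, knockout minus control, was 0.20 ± 0.07 (adjusted p = 0.0964) and did not pass, and the other probe set gave 0.26 ± 0.09 (adjusted p = 0.131). Without knockout fish/fungal replicate 1 it passed at 0.24 (adjusted p = 0.0336), as it did with array weights (0.24, adjusted p = 0.0284) and with the mean of both probe sets (0.23, adjusted p = 0.0498). Between diets it differed by -0.09 ± 0.08 for the fish/fungal diet minus lard.

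Apob, the structural protein of the triglyceride-rich particle, was the most scattered of the genes beside Apoa4. It had 13.12, 13.08 and 11.98 in knockout and 13.41, 12.57 and 12.57 in control pools on the fish/fungal diet, and 12.68 to 13.30 in the 12 other arrays. The lowest value was that of knockout fish/fungal replicate 3, and all diets overlapped. Its pooled SD within groups was 0.38, larger than that of 98% of the genes tested. No comparison passed: the fish/fungal diet minus lard gave -0.27 ± 0.19 and the averaged knockout -0.06 ± 0.15. A second, much dimmer probe set gave -0.46 ± 0.21 for the fish/fungal diet minus lard and 0.26 ± 0.17 for the knockout, so that the probe sets differ in sign for genotype.

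**Figure D3:**
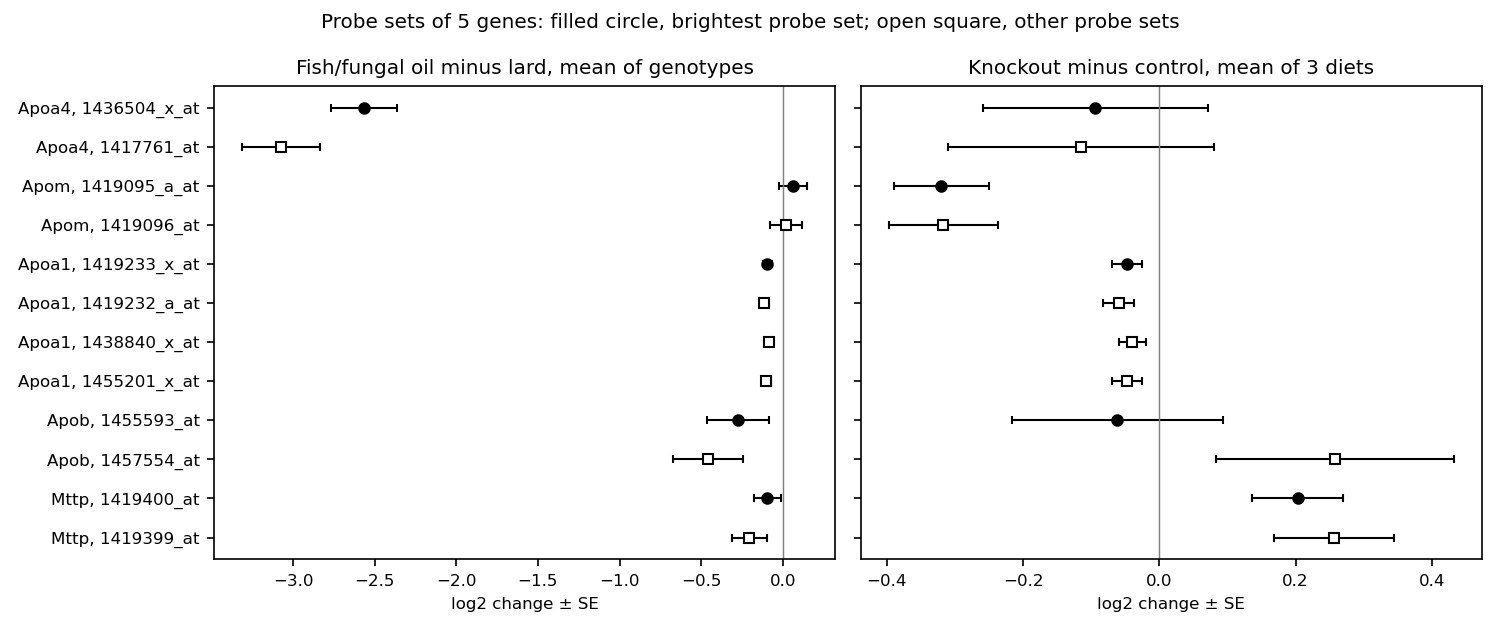
Log2 change ± SE (x axes) of every probe set of the 5 genes that have more than 1, for the fish/fungal diet minus lard averaged over genotypes (left) and for knockout minus control averaged over diets (right). Filled circles are the brightest probe set of a gene and open squares its others. Both Apoa4 probe sets lie below -2.5 on the left, and both Apom probe sets lie at -0.32 on the right.

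Canola oil and lard were not told apart by any gene. By limma 0 of the 10 genes passed in the average of the genotypes or within either genotype, and 0% of all genes did. At an unadjusted p under 0.05 there were 1 of 10 in the average, Apom at -0.20 ± 0.09, and 852 of all 12578. The difference for Apoa4, canola oil minus lard, was 0.14 ± 0.20, with a 95% interval of -0.28 to 0.56.

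The question whether the effect of genotype depends on diet was put to an F test over the interaction terms. By limma 0 of the 10 genes passed, and 0% of all genes did, with 242 at an unadjusted p under 0.05. The smallest unadjusted p among the 10 were 0.176 for Apoc2 and 0.18 for Apoa5. Within genotypes the fish/fungal diet lowered 2 of 10 genes against lard in knockout livers and 3 of 10 in control livers, where 0.461% and 0.716% of all genes passed and 0.421% and 0.62% were lower. Against canola oil it lowered 2 of 10 in knockout and 3 of 10 in control livers, where 0.159% and 0.262% of all genes passed and 0.127% and 0.223% were lower. The counts within control livers against lard changed with single arrays, between 1 and 3, as given above for Apoc2 and Apoa5.

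The genes with the pattern most like that of the falling apolipoproteins were found by Pearson's r over the 18 arrays, as a description. For Apoa4 these were Mfsd2a, a transporter of lysophosphatidylcholine that carries docosahexaenoic acid (r = 0.963), the desaturase gene Fads1 (r = 0.95) and H2-Q10, a class I gene secreted by liver that belongs to a family of near-identical copies (r = 0.939). For Apoc2 they were Apoa4 (r = 0.932), Fabp2 (r = 0.922) and Mfsd2a (r = 0.91). For Apoa5 they were Vegfb (r = 0.902), the desaturase gene Fads2 (r = 0.866) and the elongase gene Elovl5 (r = 0.851). All of these r values span the gap between diets. Within the 12 arrays on canola oil or lard, r was 0.687 for Apoa4 with Mfsd2a, 0.13 with Fads1 and 0.258 with H2-Q10. Within the 6 fish/fungal arrays the order differed, with 0.158 for Mfsd2a, 0.719 for Fads1 and 0.362 for H2-Q10. For Apoc2 the values within canola oil and lard were 0.651 with Apoa4, 0.662 with Fabp2 and 0.312 with Mfsd2a, and within the fish/fungal arrays 0.266, 0.394 and 0.603 in that order. For Apoa5 they were 0.468 with Vegfb, 0.634 with Fads2 and 0.302 with Elovl5 within canola oil and lard, and 0.839, 0.262 and 0.351 within the fish/fungal arrays.

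Fabp2, the intestinal fatty acid binding protein, was listed here as an enterocyte marker and fell beside Apoa4. On the fish/fungal diet it had 11.14, 10.82 and 10.65 in knockout and 11.08, 10.90 and 10.82 in control pools, against 11.64, 11.98 and 11.57 in knockout and 12.08, 11.77 and 12.19 in control pools on lard. All fish/fungal arrays lay below all lard arrays, with a change of -0.97 ± 0.12 (adjusted p = 9.02e-05), and it was -1.13 ± 0.12 against canola oil. It was the only 1 of 5 enterocyte markers bright enough to test. Vil1 and Lct lay below the array median in all 18 arrays and Alpi in 16, and Sis is not analysed here. The summed enterocyte level is therefore that of Fabp2, at 1603 to 2256 in knockout and 1803 to 2171 in control pools on the fish/fungal diet, and 3048 to 4035 in knockout and 3489 to 4667 in control pools on lard.

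Other genes of the lipoprotein pathway were read from 5 lists drawn from general knowledge, of which 8 genes are not analysed here. These lists too were drawn with earlier results of these data known. Of 10 further apolipoprotein genes 0 rose and 1 fell in the averaged knockout: Apoc4, which lies between Apoc2 and Apoc1, by 0.13 ± 0.03 (adjusted p = 0.0276). Over all 12578 genes 480 rose and 95 fell there. On the fish/fungal diet 0 of the 10 passed by limma relative to lard and 3 had an unadjusted p under 0.05. Among those 3, Saa4 had 0.32 ± 0.09 (adjusted p = 0.0723) and Apof had -0.21 ± 0.06 (adjusted p = 0.113). The list's median log2 change was 0.01 in that diet comparison and -0.06 in the knockout, against -0.09 and -0.04 for the 10 main genes and -0.00051 and -0.0047 over all genes. Medians of the other 4 lists lay between -0.10 and 0.06 in the diet comparison and between -0.07 and 0.13 in the knockout. The call for Apoc4 was lost without any of 6 single arrays (adjusted p up to 0.0664): control lard replicate 3, knockout canola replicates 1 and 2, control fish/fungal replicates 2 and 3 and knockout fish/fungal replicate 2. It was also lost with median centring (adjusted p = 0.0897), without the intensity trend (0.0919) and without the filter on dim probe sets (0.0538). Saa4 on the fish/fungal diet relative to lard passed with median centring (adjusted p = 0.0321) and with only the groups compared in the fit (0.0407), and without control canola replicate 1 or 2 (0.0402 and 0.0243). Relative to canola oil 0 of the 10 passed by limma on that diet and 4 had an unadjusted p under 0.05, where 1218 of all 12578 genes did. The acute-phase gene Saa1 had the largest of these changes, 1.32 ± 0.32 (2.5-fold, adjusted p = 0.0549).

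Of 20 partners of lipoprotein assembly and secretion, 0 rose and 1 fell in the averaged knockout and on the fish/fungal diet relative to lard. Over all 12578 genes 95 and 224 fell in these comparisons. In the averaged knockout 8 of the 20 had an unadjusted p under 0.05, where 2262 of all genes did. The list's log2 changes there ran from -0.15 to 0.47, with a median of 0.12. On the fish/fungal diet relative to canola oil 0 passed by limma and 3 had an unadjusted p under 0.05. Among those 3, Sort1, a sorting receptor for apolipoprotein B, had 0.31 ± 0.08 (adjusted p = 0.062), and it passed with quantile normalization repeated (0.0348), median centring (0.0419) and the filter at the 75th percentile (0.0393), and without knockout lard replicate 1 or knockout fish/fungal replicate 1 (0.0354 and 0.0357). The gene that fell in the knockout was Aadac, a lipase of the hepatocyte endoplasmic reticulum, by 0.14 ± 0.04 (adjusted p = 0.0298), and on the fish/fungal diet relative to lard it was Tm6sf2, needed for full lipidation of very-low-density lipoprotein, by 0.39 ± 0.09 (adjusted p = 0.0268). Tm6sf2 had 8.81, 8.54 and 8.86 in knockout and 8.40, 8.33 and 8.66 in control pools on the fish/fungal diet, against 9.07, 8.90 and 9.28 in knockout and 8.95, 8.83 and 8.94 in control pools on lard. The diets overlapped between genotypes and not within them. The call of Aadac was lost without control lard replicate 2 or 3, control canola replicate 3, knockout canola replicate 2, control fish/fungal replicate 1 or 3 or knockout fish/fungal replicate 2 (adjusted p = 0.0531 to 0.0712), and also without the intensity trend (0.0717) or the filter on dim probe sets (0.0526). That of Tm6sf2 was lost without control lard replicate 1 or 3, knockout lard replicate 1 or 3, control fish/fungal replicate 1 or 2 or knockout fish/fungal replicate 2 (adjusted p = 0.0551 to 0.0749), and also with quantile normalization repeated (0.0532) or median centring (0.0529).

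Of 10 lipases and remodelling factors, 3 rose and 0 fell in the averaged knockout, where 480 of all 12578 genes rose and 95 fell. Lpl, the lipoprotein lipase that Apoc2 serves, rose by 1.31 ± 0.09 (2.48-fold, adjusted p = 9.06e-08). It had 11.51, 11.53 and 11.55 in knockout and 9.74, 9.70 and 9.43 in control pools on the fish/fungal diet. It had 10.70, 10.51 and 9.99 in knockout and 9.56, 9.42 and 9.30 in control pools on canola oil, and 10.94, 11.01 and 10.60 in knockout and 9.70, 9.95 and 9.71 in control pools on lard. The genotypes were apart on every diet, and Lpl passed on each of them. The others were Angptl4, an inhibitor of lipoprotein lipase (0.52 ± 0.12, adjusted p = 0.0208), and Pon3, a lactonase carried on high-density lipoprotein (0.31 ± 0.06, adjusted p = 0.00775). Angptl4 did not pass without knockout canola replicate 2 (adjusted p = 0.052) or by the mean of its probe sets (0.22, adjusted p = 0.117). The macrophage markers given beside Apom rose in the same comparison, and their part in the Lpl result was not tested. Relative to lard 0 of the 10 passed on the fish/fungal diet by limma and 2 had an unadjusted p under 0.05, with -0.65 ± 0.23 for Lipg and 0.26 ± 0.11 for Lpl. Relative to canola oil, averaged over both genotypes, 1 of the 10 rose on that diet. It was Lpl by 0.66 ± 0.11 (1.58-fold, adjusted p = 0.00412), a call that held under every alternative run. Over all genes 37 of 12578 rose in that comparison. In knockout livers alone the rise of Lpl against canola oil was 1.13 ± 0.15 (2.19-fold, adjusted p = 0.00239). In control livers alone 0 of the 10 passed by limma against canola oil or lard. The mean of Lpl in control pools was 9.63 on the fish/fungal diet, 9.43 on canola oil and 9.79 on lard. In knockout pools these means were 11.53, 10.40 and 10.85.

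Of 8 receptors and cholesterol exporters, 2 rose and 0 fell in the averaged knockout: Sdc1, a proteoglycan that binds remnant particles, by 0.22 ± 0.05 (adjusted p = 0.0197) and Sorl1, a sorting receptor, by 0.23 ± 0.06 (adjusted p = 0.0384). Over all 12578 genes 480 rose and 95 fell in that comparison. Sorl1 did not pass without any of 13 single arrays (adjusted p up to 0.0893), and Sdc1 did not pass without knockout canola replicate 2 (adjusted p = 0.052). With median centring neither passed (adjusted p = 0.0639 for Sorl1 and 0.066 for Sdc1), and Sorl1 did not pass without the filter on dim probe sets (0.0527). On the fish/fungal diet 1 fell relative to lard, where 224 of all 12578 genes did: Lsr, the lipolysis-stimulated receptor, by 0.44 ± 0.10 (adjusted p = 0.0291). Its call was lost without control lard replicate 2 or 3, knockout lard replicate 1, control fish/fungal replicate 1 or 3 or knockout fish/fungal replicate 1 (adjusted p = 0.0612 to 0.0876) and by the mean of its probe sets (-0.20, adjusted p = 0.179).

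Of 17 transcription regulators of these genes 1, Srebf1, fell by limma on the fish/fungal diet relative to lard, where 224 of all 12578 genes fell. In that comparison 8 of the 17 had an unadjusted p under 0.05, where 1648 of all genes did. The list's median log2 change was -0.10. Srebf1, whose product drives fatty acid synthesis, had 10.44, 10.90 and 10.50 in knockout and 11.35, 11.21 and 10.57 in control pools on the fish/fungal diet, against 11.63, 11.31 and 11.40 in knockout and 12.02, 12.28 and 12.14 in control pools on lard. The diets were apart within each genotype. The change was -0.97 ± 0.14 (adjusted p = 0.000942), and it was -0.61 ± 0.14 relative to canola oil (adjusted p = 0.0549). In the averaged knockout 0 of 17 passed by limma and 2 had an unadjusted p under 0.05, with -0.42 ± 0.12 for Srebf1 (adjusted p = 0.0506) and -0.23 ± 0.07 for Foxo1 (adjusted p = 0.0815). Srebf1 passed there without control canola replicate 2, knockout canola replicate 3, control fish/fungal replicate 3 or knockout fish/fungal replicate 2 (adjusted p = 0.0126 to 0.0413). It also passed with quantile normalization repeated (0.0378), median centring (0.0236), the filter at the 75th percentile (0.0458) and array weights (0.0152). Foxo1 passed with quantile normalization repeated (0.0266), with median centring (0.0376) and without knockout fish/fungal replicate 3 (0.0278), so the count of 0 depends on these settings. Relative to canola oil on the fish/fungal diet Srebf1 passed with median centring (0.0252), the filter at the 75th percentile (0.0446) and array weights (0.03), and without control canola replicate 2, control fish/fungal replicate 1 or knockout fish/fungal replicate 2 (0.0223 to 0.0374). Hnf4a, a nuclear receptor that binds many apolipoprotein promoters, lay between 11.69 and 12.27 in all arrays.

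**Figure D4:**
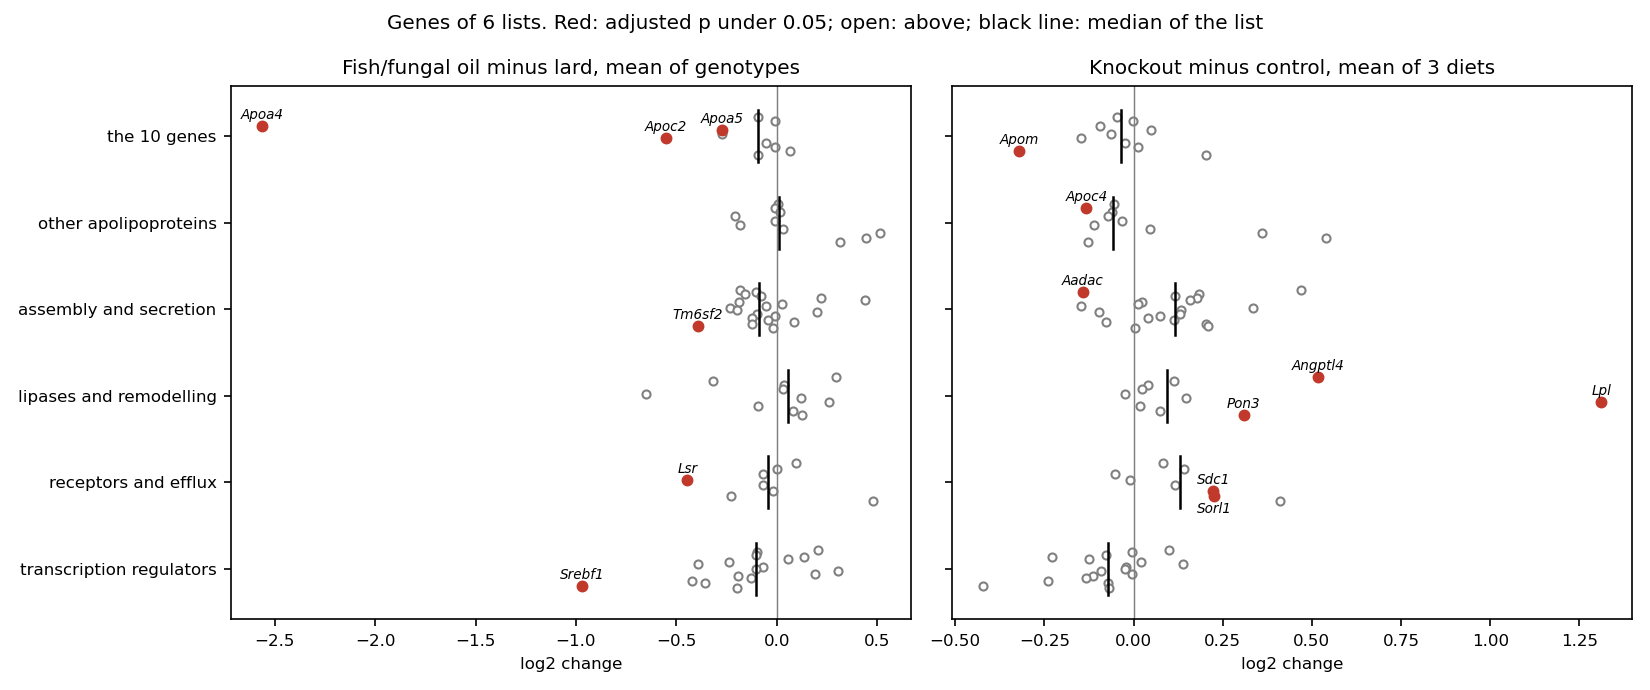
Log2 change (x axes) of every tested gene of the 10 main genes and of the 5 further lists (y axis), for the fish/fungal diet minus lard averaged over genotypes (left) and for knockout minus control averaged over diets (right). Red points passed the threshold, open points did not, and black lines are list medians. Apoa4 at -2.56 and Lpl at 1.31 lie farthest out.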

How the data were processed

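The authors' deposited log2 values from Affymetrix Mouse Genome 430 2.0 arrays were used; per the submitters' processing notes they were made with RMA, whose version is not given in the sources used here. The log2 scale was read from the values, which run from 2.41 to 14.9. Per the labels each array held RNA pooled from 3 mice, with siblings spread at random over the diets. Pools are the replicates, so p-values measure the spread between pools. Sample labels give 7% fat and the series text 6%.

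Symbols came from the array annotation, updated by gene ID against RefSeq (34741 probe sets matched). Of 45101 probe sets 34945 had 1 symbol, 932 had several and 9160 were unlisted. A gene was tested where its brightest probe set lay above the array median in at least 3 arrays, which set 5615 of 18193 genes aside as dim. limma 3.58.1 in R 4.3.3 fitted 6 group means over 18 arrays with an intensity trend. P-values are two-sided and adjusted by Benjamini-Hochberg over the 12578 genes. The precision is limited by the 3 arrays in each group. The fit was also run on simulated data with known changes and noise that was independent between genes. The outcome of that run is not given here, and no result rests on it.

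The members and lists were chosen with earlier results of these data known. From each pathway list up to 4 genes that passed were named by smallest p, or up to 2 by value where none passed; the 3 genes with the smallest adjusted p were described by the 3 genes most correlated with each. Alternatives were repeated quantile normalization, median centring, other dim-probe filters, other ways to choose a probe set, no intensity trend, array weights, leaving out each array, a replicate block and fits of fewer groups.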

Additional observations from a re-analysis of the deposited data

How the results depend on the processing

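Over 390 alternative counts of the 10 genes that passed a comparison, 11 differed from the reported count by more than 1.5 times. In the averaged knockout the count of 1 became 2 with the mean of all probe sets and with array weights, in both cases by adding Mttp, and it ranged from 1 to 2 when single arrays were left out: Apoc2 passed without control canola replicate 1 (-0.18, adjusted p = 0.0403) and Mttp without knockout fish/fungal replicate 1. For the fish/fungal diet relative to lard in control livers the count of 3 became 1 with median centring and without the intensity trend, and ranged from 1 to 3 when single arrays were left out. Relative to canola oil in control livers it became 1 with only the groups compared in the fit, and the leave-one-out range was 2 to 3. Averaged over genotypes the leave-one-out range was 3 to 3 relative to lard and 3 to 4 relative to canola oil, and Apoa4, Apoc2 and Apoa5 passed under every alternative run. Apom passed in the averaged knockout under every alternative run as well, with adjusted p from 0.00295 to 0.0294 without single arrays and from 0.00217 to 0.0298 under the others. Apoa1 relative to lard passed with a filter at the 75th percentile (adjusted p = 0.0338) and when its probe sets were averaged (adjusted p = 0.0385). Among 3164 alternative values of single genes 171 fell on the other side of the threshold and 0 that had passed changed sign. Of the genes that passed in the averaged knockout 480 were higher and 95 lower, against 401 higher and 163 lower with quantile normalization repeated, and 674 higher and 172 lower with array weights. The labels do not state whether the replicate numbers pair the samples. Deviations of same-numbered arrays correlated at -0.397 to 0.458 over 45 pairs, and 6 of 18 arrays correlated best with their own number. With 3 arrays in each group these values cannot decide whether a pairing exists. With the replicate block the counts stayed at 1 in the averaged knockout and at 3 for the fish/fungal diet relative to lard and to canola oil, and Sorl1 (adjusted p = 0.054), C1qa (0.0569) and C1qb (0.0575) in the knockout and Lyz2 relative to canola oil (0.0533) no longer passed. A fit of only the groups compared is the main fit itself for the averaged knockout and the interaction. Genes near the top of the brightness scale set a limit of their own, as given above for Apoa1, Apoa2, Apoe and Apoc3 and for albumin among the hepatocyte markers.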
